A study of Saccharomyces cerevisiae with 4 samples.

Results

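The genes of 6 permeases of budding yeast were followed, which serve the uptake of methionine (MUP1 and MUP3), of S-methylmethionine (MMP1), of S-adenosylmethionine (SAM3) and of sulfate (SUL1 and SUL2). They were found by the symbol or open reading frame that the authors' table gives for a probe set, and all 6 of 6 were present, with 10 of 7519 probe sets and 6 of 5128 genes tested. Transcript signals came from 4 Affymetrix Yeast Genome S98 arrays. The cells of 2 arrays had been kept for 15 min in fresh MM4 medium with quinine at 1 g/L, brought in from an ethanol solution at 0.7% by volume. Those of the other 2 arrays, the control, had been kept as long in fresh medium without quinine. The labels do not state whether this medium held ethanol. Both groups were strain BY4741, taken in mid-exponential growth. This laboratory strain is haploid, of mating type a, and by background knowledge carries deletions in HIS3, LEU2, MET17 and URA3.

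Yeast needs sulfur for methionine, cysteine, glutathione and S-adenosylmethionine, the methyl donor of the cell. It takes up sulfate and reduces it to sulfide, or takes up organic sulfur compounds that already hold the reduced atom. Met17 joins sulfide to a carbon skeleton, so strains without MET17 are grown with an organic sulfur source such as methionine. Transporter genes of this group are known to be switched by the activator Met4 and its partner proteins according to the supply of sulfur amino acids.

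The median signal over 7519 probe sets was 636 and 596 on the quinine arrays and 621 and 626 on the control arrays. Within a group, the log2 signals of a gene on the 2 arrays had a median difference of 0.20 with quinine and 0.21 in controls. Nothing in the labels tells whether the replicates came from separate cultures, so every p value rests on a spread between arrays that may be technical only. Of 7 a-cell genes, all were called Present on all 4 arrays, with a summed signal of 35583 and 29991 with quinine and 33084 and 27882 in controls. Of 4 alpha-cell genes, 2 were called Present on both quinine arrays and 3 on both control arrays, and their summed signal was 1058 and 999 with quinine and 942 and 978 in controls.

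Signals of 4 transporter genes, MUP3, SUL1, MMP1 and SAM3, were higher on both quinine arrays than on either control array, by 1.56-fold to 1.97-fold, while MUP1 and SUL2 gave signals that overlapped between the groups. None of the 6 genes passed the test over all genes, limma with Benjamini-Hochberg adjustment and a threshold of 0.05, which called 1 of 5128 genes (0.0195%). At an unadjusted p under 0.05, 4 of the 6 genes were higher with quinine, against 6.38% of all genes tested, and 0 of the 6 were lower, against 12.1% of all genes. Both quinine arrays lay above both control arrays for the same 4 genes, a pattern that 19.8% of all genes showed. The opposite, both quinine arrays below both control arrays, held for 0 of the 6 genes and for 29.9% of all genes. The median log2 fold change was 0.71 over the 6 genes and -0.02 over all 5128. The 6 genes, and the lists below, were chosen with earlier results of these data known. The shares beside them are therefore a description and not a test of the group.

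**Figure D1:**
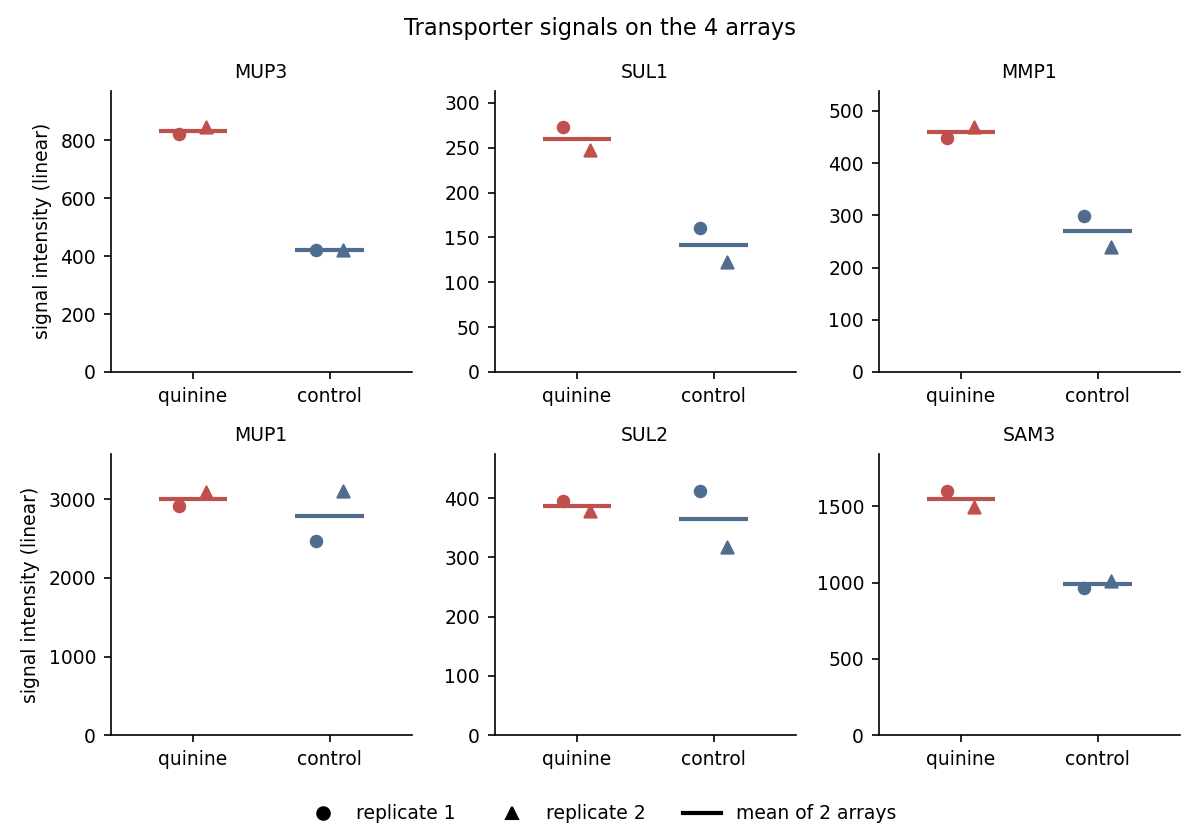
Signal intensity on a linear scale that starts at 0, for the 6 transporter genes; each point is 1 array, the shape gives the replicate and the bar is the mean of 2 arrays. The quinine arrays stand above the control arrays for MUP3, SUL1, MMP1 and SAM3, and lie among them for MUP1 and SUL2.

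Of the methionine permease genes, MUP3 was the one whose groups lay apart. MUP3 (YHL036W), which encodes a low-affinity methionine permease, had signals of 822 and 845 with quinine and 422 and 423 in controls. The groups were far apart for MUP3, and the 2 control arrays were nearly level. Its mean was 833 ± 16.2 with quinine and 422 ± 0.32 in controls (SD, n = 2 each), a fold of 1.97. The log2 fold change was 0.98 with a standard error of 0.16, which limma sets partly from the spread of all genes, and the adjusted p was 0.0744 in limma. MUP3 ranked 56 among 5128 genes by p, and 1.81% of genes had a higher log2 fold change. Only 1.29% of genes had a smaller spread within the groups.

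MUP1 (YGR055W), the gene of the high-affinity methionine permease that also takes up cysteine, had signals of 2921 and 3094 with quinine and 2464 and 3112 in controls. Both quinine arrays lay between the control arrays for MUP1. The log2 fold change was 0.12 ± 0.17 (SE), the fold 1.09 with a 95% interval from 0.81 to 1.45, and the adjusted p was 0.760 in limma. The direction rested on 1 array: without control replicate 1 the log2 fold change was -0.05.

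The difference between the methionine permease genes was also taken within each array. Relative to the control mean, the log2 ratio of MUP3 to MUP1 was 0.88 and 0.84 on the quinine arrays and 0.17 and -0.17 on the control arrays. It thus stood higher on both quinine arrays, by 0.86 on average. With 2 arrays against 2, the exact two-sided permutation p was 0.333, the smallest this design allows, and 0.500 after adjustment over the 3 pairs of related genes compared.

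The sulfate permeases gave the same contrast. SUL1 (YBR294W) and SUL2 (YLR092W) both encode high-affinity sulfate permeases of the plasma membrane. SUL1 had signals of 273 and 247 with quinine and 161 and 122 in controls. The groups did not overlap for SUL1, and it was called Present on both quinine arrays and on 1 of the 2 control arrays, so that 1 of its control signals was not told from background. The mean was 260 ± 18.2 with quinine and 142 ± 27.3 in controls (SD, n = 2 each), a fold of 1.85 with a log2 fold change of 0.89 ± 0.20 (SE) and adjusted p = 0.116 in limma.

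SUL2 had signals of 395 and 379 with quinine and 413 and 317 in controls. The quinine arrays again lay between the control arrays. Its log2 fold change was 0.10 ± 0.19 (SE), the fold 1.07 with a 95% interval from 0.77 to 1.48, and the adjusted p was 0.825 in limma. Without control replicate 2 the log2 fold change of SUL2 was -0.09. Relative to the control mean, the log2 ratio of SUL1 to SUL2 was 0.83 and 0.75 on the quinine arrays and 0.0069 and -0.0069 on the control arrays. The control arrays were nearly level in this ratio, since SUL1 and SUL2 were both higher in control replicate 1. The difference was 0.79, with an exact two-sided permutation p of 0.333, the smallest possible, and 0.500 over the 3 pairs.

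The permeases for the methionine derivatives were both higher with quinine. MMP1 (YLL061W) encodes the high-affinity permease for S-methylmethionine, a compound that yeast can use as a sulfur source. MMP1 had signals of 449 and 469 with quinine and 298 and 240 in controls. The groups did not overlap, and the control arrays were further apart than the quinine arrays. The mean was 459 ± 14.1 with quinine and 269 ± 40.9 in controls (SD, n = 2 each), a fold of 1.71 with a log2 fold change of 0.78 ± 0.18 (SE) and adjusted p = 0.119 in limma.

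SAM3 (YPL274W) encodes the high-affinity permease for S-adenosylmethionine and is similar to MMP1. On the probe set of its open reading frame the signals were 1603 and 1494 with quinine and 967 and 1012 in controls. The groups were apart and each was tight. The mean was 1549 ± 77.6 with quinine and 990 ± 31.9 in controls (SD, n = 2 each), a fold of 1.56 with a log2 fold change of 0.65 ± 0.16 (SE) and adjusted p = 0.142 in limma. The log2 ratio of MMP1 to SAM3, relative to the control mean, was 0.05 and 0.21 on the quinine arrays and 0.19 and -0.19 on the control arrays. These overlapped, with a difference of 0.13 and an exact two-sided permutation p of 0.667, or 0.667 after adjustment over the 3 pairs.

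SAM3 was the one transporter gene named for more than 1 probe set. Beside that of the open reading frame, 4 probe sets carried its name but were designed on other features of the same chromosome, called gPL02_3, gPL02_4 and gPL02_5 in the table. The gPL02_5 probe set had signals of 1021 and 1123 with quinine and 597 and 802 in controls. The gPL02_4 probe set had 1306 and 1440 with quinine and 867 and 1117 in controls, and was called Present on only 1 of the 2 control arrays. Both sets had quinine arrays above the control arrays, as 18.2% of all probe sets did, with folds of 1.55 and 1.39. In a fit over all 7519 probe sets, where 5.20% were higher at an unadjusted p under 0.05, gPL02_5 had an unadjusted p of 0.0304 and adjusted p = 0.328 in limma, and gPL02_4 an unadjusted p of 0.0611 and adjusted p = 0.410.

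The feature gPL02_3 had 2 probe sets, and they differed. One had signals of 212 and 376 with quinine and 128 and 233 in controls, a fold of 1.64 with groups that overlapped. The other had 391 and 447 with quinine and 340 and 529 in controls, a fold of 0.99, and was called Present on 1 array of each group. All 4 of these probe sets were higher in replicate 2 than in replicate 1 in both groups, whereas the probe set of the open reading frame was lower in replicate 2 with quinine. Affymetrix gives the suffix of the gPL02_4 and gPL02_5 sets to probes that can match more than 1 sequence, and whether they also bind MMP1 transcripts was not tested.

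**Figure D2:**
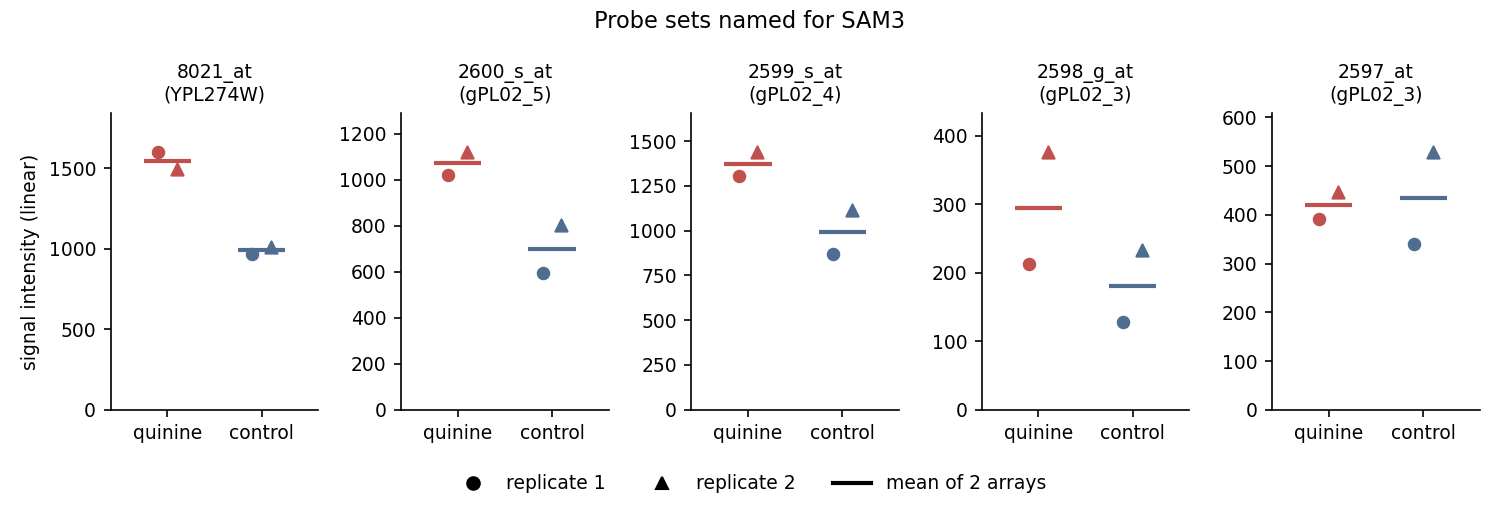
Signal intensity, linear from 0, for the 5 probe sets named for SAM3; each point is 1 array, the shape gives the replicate and the bar is the mean of 2 arrays. The sets for YPL274W, gPL02_5 and gPL02_4 have quinine arrays above control arrays, and the 2 sets for gPL02_3 overlap.

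In the authors' deposited table, 777 of 7519 probe sets carry a mark, each with a fold whose lower bound was 1.2 or more in size. The marked sets that were higher with quinine made up 4.07% of the table. The authors' deposited table marks MUP3, SUL1 and MMP1 and 2 of the 5 sets of SAM3. Its fold for MUP3 is 1.97 with bounds of 1.87 and 2.09 in the authors' deposited table, the narrowest of the marked transporters. The authors' deposited table gives SUL1 a fold of 1.84 with bounds of 1.45 and 2.45, and MMP1 one of 1.69 with bounds of 1.39 and 2.13. For SAM3 the authors' deposited table gives 1.57 with bounds of 1.45 and 1.69 on the open reading frame and 1.53 with bounds of 1.21 and 2.05 on gPL02_5. MUP1 and SUL2 are unmarked in the authors' deposited table, with folds of 1.08 and 1.06 and lower bounds of 0.90 and 0.86.

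By fold over all 4 arrays the order was MUP3, SUL1, MMP1, SAM3, MUP1 and SUL2, but it rested on single arrays. Without control replicate 1 the log2 fold change was 1.09 for SUL1 and 0.98 for MUP3. Without control replicate 2 it was 0.68 for SAM3 and 0.62 for MMP1. Over the 4 pairs of 1 quinine and 1 control array, the fold of MUP3 ran from 1.95 to 2.00, that of SUL1 from 1.54 to 2.23, that of MMP1 from 1.51 to 1.95 and that of SAM3 from 1.48 to 1.66. Neighbours among SUL1, MMP1 and SAM3 could not be told apart beyond this spread, MUP3 lay within the range of SUL1, and MUP3 and SAM3 did not overlap. The folds of MUP1, from 0.94 to 1.26, and of SUL2, from 0.92 to 1.25, lay below all of these.

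Over 4 lists of other genes of sulfur metabolism, 37 of 41 were tested, 20 were higher and 17 lower, and the median log2 fold change was 0.05. At an unadjusted p under 0.05, 1 was higher and 3 were lower, against 6.38% and 12.1% of all genes, and 0 passed over all genes in limma. Both quinine arrays lay above both control arrays for 6 of the 37 genes and below them for 10, beside 19.8% and 29.9% of all genes. MET2, MET17, MET32 and SEO1 were not analysed here.

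For sulfate assimilation, which carries sulfate taken up by Sul1 and Sul2 to sulfide, 3 of 8 tested genes were higher and 5 lower, and their median log2 fold change was -0.13. Neither direction had a gene with an unadjusted p under 0.05 in limma. The gene with the largest difference was MET16, of the enzyme that reduces activated sulfate to sulfite. MET16 had signals of 612 and 526 with quinine and 619 and 945 in controls, a log2 fold change of -0.43 ± 0.25 (SE), and its lower control array stood just above the higher quinine array.

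For synthesis of methionine, S-adenosylmethionine and cysteine, 10 of 16 tested genes were higher and 6 lower, with a median of 0.08. This median was -0.0075 without control replicate 1. Its 1 gene with an unadjusted p under 0.05 was MET12, which encodes a methylenetetrahydrofolate reductase isozyme. MET12 had signals of 1903 and 1598 with quinine and 1242 and 1238 in controls, without overlap. Its fold was 1.41 and its adjusted p 0.227 in limma.

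Mht1 and Sam4 are the homocysteine methyltransferases that use the compounds brought in by Mmp1 and Sam3, S-methylmethionine and S-adenosylmethionine. MHT1 had signals of 83.2 and 52.3 with quinine and 57.0 and 28.4 in controls, with groups that overlapped and a Present call on 1 of the 2 control arrays. Its log2 fold change was 0.71 ± 0.40 (SE), with adjusted p = 0.408 in limma. SAM4 had signals of 3375 and 3535 with quinine and 3896 and 4154 in controls, so that it stood lower on both quinine arrays while SAM3 stood higher on both. The log2 fold change of SAM4 was -0.22 ± 0.13 (SE), with adjusted p = 0.428 in limma.

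Among regulators of the sulfur genes, 2 of 6 were higher and 4 lower, with a median of -0.19. MET4, the activator of the pathway, had signals of 372 and 479 with quinine and 579 and 738 in controls. Its groups were apart, with a log2 fold change of -0.63 ± 0.21 (SE) and adjusted p = 0.213 in limma. MET31, one of the zinc finger proteins that bring Met4 to DNA, had signals of 104 and 110 with quinine and 136 and 154 in controls, with a log2 fold change of -0.44 ± 0.18 (SE) and adjusted p = 0.270 in limma. MET4 and MET31 had the 2 unadjusted p values under 0.05 in this list, 0.0262 and 0.0485 in limma. These 2 of 6 genes were lower, against 12.1% of all genes tested, and 0 of the 6 passed over all genes. Of the 6 regulators, 4 were lower with groups that did not overlap, against 29.9% of all genes. Another 1 was higher without overlap, against 19.8%. Among the 4 lower ones, CBF1 was called Present on only 1 array of each group. Its higher quinine signal, 727, lay just below its lower control signal, 729. Whether these transcript levels bear on the 4 transporter genes above was not tested.

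Among other carriers and enzymes for sulfur compounds, 5 of 7 tested genes were higher and 2 lower, with a median of 0.12. OPT1, which encodes the high-affinity glutathione transporter, was the 1 gene with an unadjusted p under 0.05. OPT1 had signals of 881 and 860 with quinine and 1513 and 1233 in controls, so it was lower on both quinine arrays, with a log2 fold change of -0.65 ± 0.18 (SE) and adjusted p = 0.155 in limma. The largest rise in this list was that of PET8, with signals of 572 and 463 with quinine and 439 and 323 in controls, without overlap. Its fold was 1.37, with an unadjusted p of 0.0856 in limma. The cysteine transporter gene YCT1 had a fold of 1.14, and the sulfite pump gene SSU1 one of 1.12, both with unadjusted p values above the threshold.

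**Figure D3:**
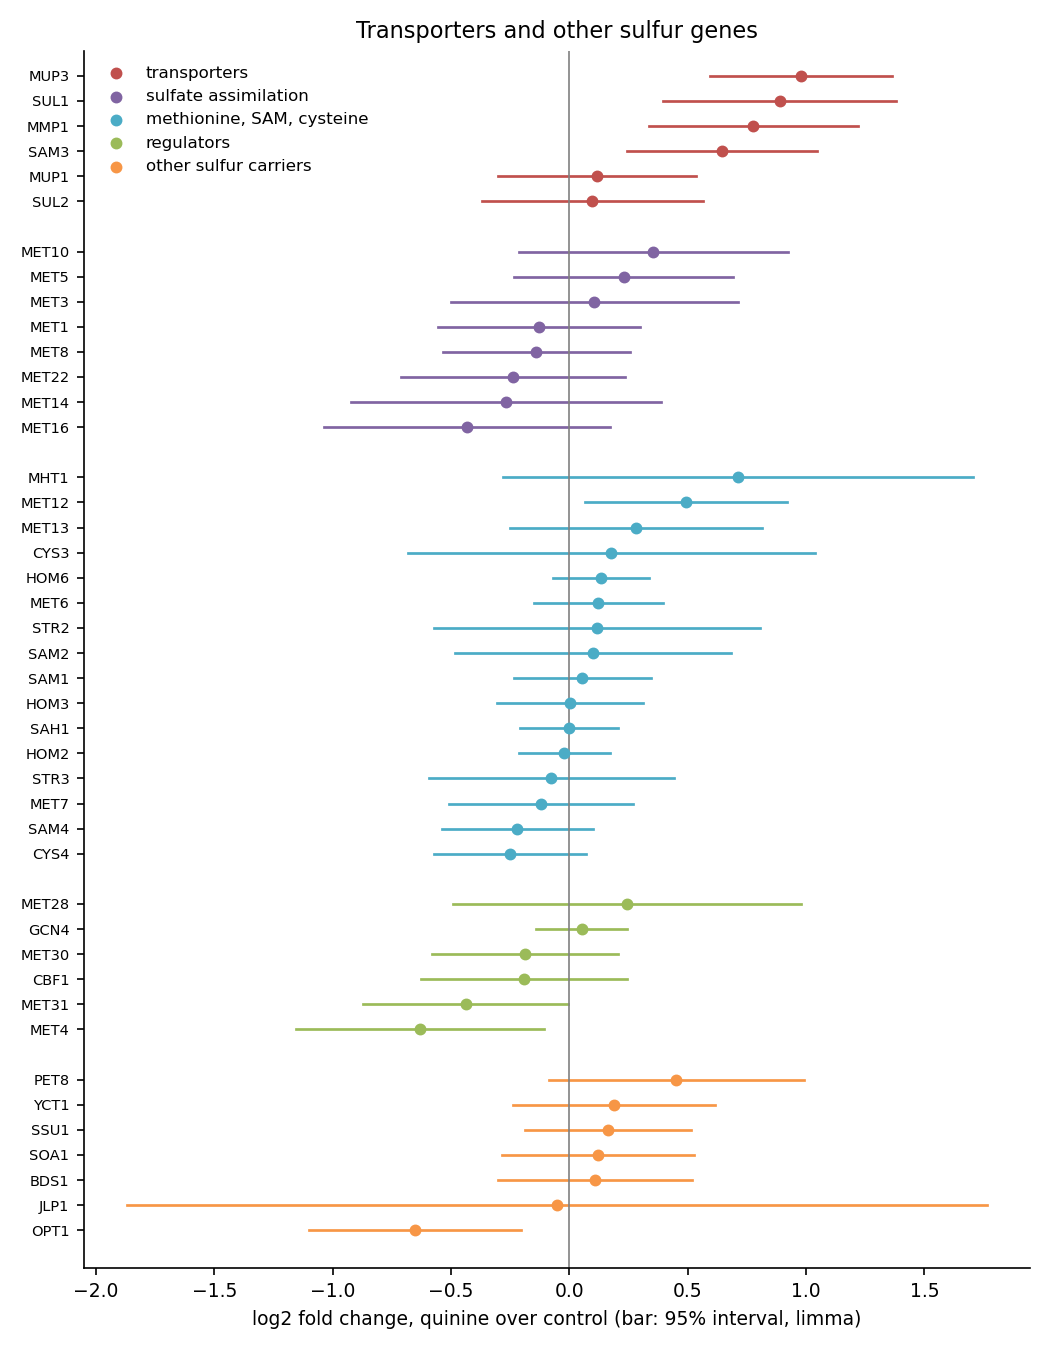
Log2 fold change of quinine over control for the 6 transporter genes and for the 37 other sulfur genes tested, by list; each point is 1 gene and the bar its 95% interval from limma. The intervals of 4 transporters lie above 0, and among the other genes MET12 lies above 0 while MET4, MET31 and OPT1 lie below it.

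Mmp1 and Sam3 belong to the same permease superfamily as the amino acid permeases of the plasma membrane. Of 16 genes in a list of these permeases and their sensor gene SSY1, 11 were higher and 5 lower, and their median log2 fold change was 0.12. At an unadjusted p under 0.05, 4 were higher, against 6.38% of all genes tested, and 1 was lower, against 12.1%, and 0 passed over all genes in limma. AGP2, a plasma membrane regulator of transport with a permease fold, had signals of 1744 and 1601 with quinine and 611 and 672 in controls. This was a fold of 2.61, above that of all 6 sulfur transporters, with adjusted p = 0.0723 in limma. The proline permease gene PUT4 had a fold of 1.61, the tryptophan permease gene TAT2 one of 1.35 and the dicarboxylic amino acid permease gene DIP5 one of 1.31. AGP1, a broad amino acid permease gene, had signals of 4313 and 3880 with quinine and 7709 and 6386 in controls, a log2 fold change of -0.78 ± 0.14 (SE) with adjusted p = 0.0830 in limma.

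The genes beside the transporters on the chromosomes were read from the gene order of assembly R64. Of the 36 genes within 3 places of a transporter gene, 27 were tested, 11 were higher and 16 lower, and the median log2 fold change was -0.015. At an unadjusted p under 0.05, 3 were higher and 1 lower, beside shares of 6.38% and 12.1% of all genes tested. PHO89, the sodium phosphate cotransporter gene that lies 2 places from SUL1, had signals of 9309 and 8063 with quinine and 1550 and 478 in controls. Its fold was 10.1 with adjusted p = 0.0744 in limma, and its control arrays were wide apart: leaving out control replicate 1 gave a fold of 18.1, and leaving out control replicate 2 gave 5.59. PCA1, which lies between SUL1 and PHO89, had signals of 814 and 597 with quinine and 699 and 604 in controls, with groups that overlapped and a fold of 1.07.

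MAL33, a maltose activator gene 4 places from SUL1 and so named after its values were seen, was the 1 gene called over all genes, with a fold of 10.7 and adjusted p = 0.0466 in limma. Its call was lost without quinine replicate 1, where the fold was 12.0, and without quinine replicate 2, where the fold was 9.47. It was kept without control replicate 1, where the fold was 12.9, and without control replicate 2, where the fold was 8.8. With all arrays, the call was lost at folds of 10.7 to 10.9 when all probe sets entered the fit (adjusted p = 0.148 in limma) or the variance trend was dropped (0.0771). The same held when arrays were quantile normalized (0.0628) or centred on their medians (0.0502). The call was kept with an offset of 50, at a lower fold of 7.14 (adjusted p = 0.0239 in limma). It was also kept at a fold of 10.7 among genes Present on all 4 arrays (0.0267), without a filter on Present calls (0.0460) and with the mean of a gene's probe sets (0.0485). On the other side of SUL1, the citrate carrier gene CTP1 lies 3 places off. CTP1 had signals of 1954 and 1274 with quinine and 2994 and 2229 in controls, with a log2 fold change of -0.71 ± 0.26 (SE) and adjusted p = 0.242 in limma. Genes around SUL1 thus stood both higher and lower.

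Next to MUP3 lies VMR1, which encodes a vacuolar ABC transporter. VMR1 had signals of 516 and 409 with quinine and 304 and 244 in controls, without overlap, a fold of 1.69 and adjusted p = 0.148 in limma. MHT1 lies directly beside MMP1 and SAM4 directly beside SAM3, and their values are given above. ALT1, an alanine transaminase gene 3 places from SUL2, had signals of 6679 and 6685 with quinine and 3538 and 2455 in controls, a fold of 2.27 and adjusted p = 0.0751 in limma. Around MUP1, the 5 tested neighbours had log2 fold changes between -0.24 and 0.01, none with an unadjusted p under 0.05.

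**Figure D4:**
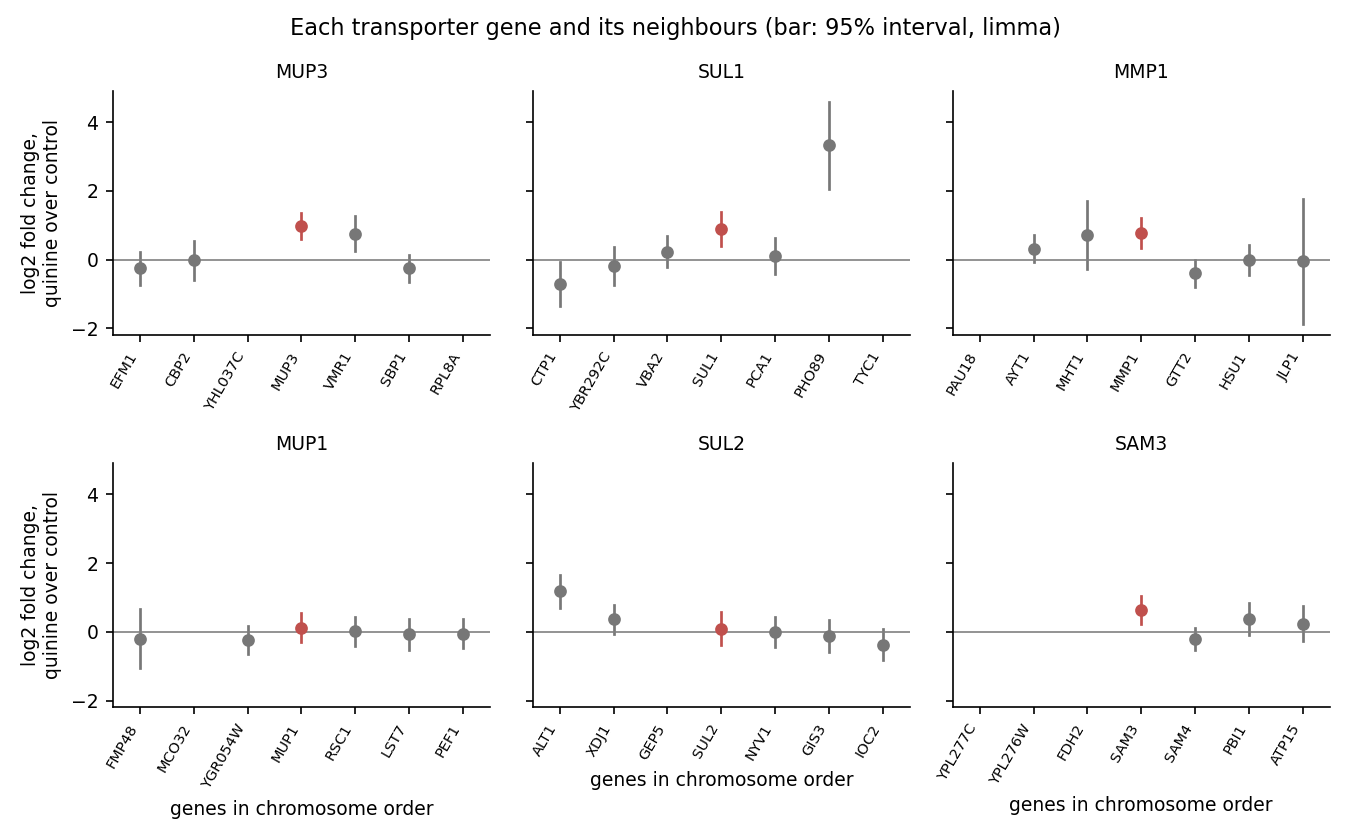
Log2 fold change of quinine over control for each transporter gene (red) and the genes up to 3 places away (grey) in chromosome order; bars are 95% intervals from limma, and genes without a point were not in the test. PHO89 near SUL1, VMR1 beside MUP3 and ALT1 near SUL2 stand above 0, and CTP1 near SUL1 stands below it.

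The genes with the profiles most like each transporter were found by the smallest distance between log2 signals centred on the gene's mean, over the 4 arrays. Nearest to MUP3 were AVT6, of a vacuolar amino acid exporter, and YJL070C, with folds of 1.94 and 1.92. Nearest to SUL1 were MPC1, of the mitochondrial pyruvate carrier, and the ubiquitin protease gene UBP9, with folds of 1.84 and 1.83. Those nearest to MMP1 were the mitochondrial RNA polymerase gene RPO41 and YNL011C, both at 1.63 or 1.64. For SAM3 they were the transcription factor gene PHO2 and AIM14, with folds of 1.57 and 1.55. MUP1 had MET18 and YDR029W nearest, and SUL2 had the ribosomal protein gene RPL17A and YLR046C, all with folds between 1.06 and 1.10. With 4 arrays these distances describe likeness over 4 values only, and none of the 6 transporter genes was among the 2 nearest of another.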

How the data were processed

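The authors deposited linear signal intensities, 1 value per probe set and array, from biotin-labelled cRNA made from 8 ug of total RNA, per the labels' protocols. The submitters' processing notes name MAS5 without role or version, and no source used here says how arrays were scaled. The authors' deposited table also holds group means as signal intensities, standard errors and a signed fold change with bounds, taken here as the authors' scores, and, as a deposited percent, the share of arrays called Present in each group. It lists 7519 probe sets. Of these, 5304 named 1 gene whose open reading frame, or an older name of it, matched the gene table of assembly R64. Those Present on at least 2 of 4 arrays were kept (5233), and the brightest set per gene gave 5128 genes.

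Signals were used as log2 values with no pseudocount. The groups were compared with limma 3.58.1 in R 4.3.3, using lmFit and eBayes with a mean-variance trend (2 residual and 3.89 prior degrees of freedom). Adjusted p values are Benjamini-Hochberg values over all 5128 genes. Folds are ratios of geometric means. The fit was tested on simulated data, drawn with independent noise on each array and so without a replicate difference shared by the groups. The number of arrays limits the precision.

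Genes named were the 6 transporters, list genes with an unadjusted p under 0.05 and no overlap (or the 1 with the largest change), MHT1 and SAM4, neighbours within 3 places and the 2 nearest profiles. The transporter genes and lists were chosen with earlier results of these data known. YCT1, SSU1, PET8, CBF1, SSY1, MAL33, CYS3, MET14 and STR2 were named after their values were seen. A planned motif search in promoters was not run, and no sequences are shown. Alternatives were other normalizations, filters, an offset, no trend, a replicate block and leaving out each array.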

Additional observations from a re-analysis of the deposited data

How the results depend on the processing

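The count of 4 transporter genes higher at an unadjusted p under 0.05 was 4 under each alternative run except Present on all 4 arrays, which leaves SUL1 out and gave 3. The median over the 6 genes ran from 0.65 to 0.77 when 1 array was left out. Log2 fold changes without 1 array ran from 0.96 to 1.00 for MUP3, 0.69 to 1.09 for SUL1, 0.62 to 0.93 for MMP1, 0.59 to 0.70 for SAM3, -0.0497 to 0.29 for MUP1 and -0.0934 to 0.29 for SUL2. Without the block, adjusted p values over the alternatives ran from 0.0590 to 0.368 for MUP3, 0.0612 to 0.417 for SUL1, 0.0862 to 0.465 for MMP1 and 0.0792 to 0.439 for SAM3. After quantile normalization, median centring and without a variance trend, 1063, 1022 and 970 of 5128 genes had an unadjusted p under 0.05 in limma. With all probe sets in the fit (an alternative added after seeing the data), 979 of 7519 probe sets did. The genes called over all genes in limma were 1 in the main fit and 0 in each of these 4 alternatives. With an offset of 50 they were 2, and without 1 array from 0 to 122: leaving out control replicate 1 gave 122, control replicate 2 gave 28 and each quinine array 0. Replicate numbers are shared by the groups, but no label says that they pair samples. Differences between replicates 1 and 2 correlated at 0.62 between quinine and control over genes, as a hint from the data. With the replicate block 1461 of 5128 genes were called. An unadjusted p under 0.05 in limma was found for 1931 genes with the block, against 946 in the main fit. MUP3 (0.98), SUL1 (0.89), MMP1 (0.78) and SAM3 (0.65) were among those that passed in the block fit. Their adjusted p values were 9.5e-08, 1.5e-06, 4.1e-05 and 3.8e-04 in limma. That fit has 1 residual degree of freedom and gives every gene of like signal the same spread, so these p values rest on the spread of all genes. List medians without 1 array ran from -0.12 to -0.0582 for sulfate assimilation, -0.0075 to 0.0685 for methionine and cysteine synthesis (0.11 after median centring), -0.26 to -0.12 for regulators (-0.12 without quinine replicate 1), 0.0588 to 0.21 for other carriers and 0.0384 to 0.15 for amino acid permeases; the cause was not tested. The 4 arrays and the dim signal of SUL1 limit what can be told.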

Other observations

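Some sulfur genes differed more between replicate numbers than between quinine and control. Over all 5128 genes tested, 69.2% had a replicate difference of the same sign in both groups. JLP1, which encodes an enzyme that frees sulfite from sulfonates, had signals of 542 and 161 with quinine and 565 and 167 in controls. Replicate 1 was 3.36 times replicate 2 with quinine and 3.39 times in controls, while the fold of quinine over control was 0.96. JLP1 lies 3 places from MMP1, whose replicate ratios were 0.96 with quinine and 1.24 in controls. CYS3, the gene of the enzyme that makes cysteine from cystathionine, had ratios of 1.31 with quinine and 2.10 in controls, and MET14, the adenylylsulfate kinase gene, 1.46 and 1.41. STR2, of the enzyme that starts the path from cysteine to homocysteine, ran the other way, at 0.74 with quinine and 0.63 in controls. Among the transporters the ratios lay between 0.94 and 1.10 with quinine and between 0.79 and 1.32 in controls.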
